A study of Mus musculus with 8 samples.

Results

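The genes described are the enzymes that oxidise and conjugate foreign and lipid compounds: cytochromes P450 of the families Cyp1 to Cyp4, glutathione S-transferases (Gst), UDP-glucuronosyltransferases (Ugt) and sulfotransferases (Sult). They were taken from the count matrices by symbol alone, as every gene whose symbol opens with Cyp1 to Cyp4 and a subfamily letter, with Gst, a class letter and a number, with Ugt1a, Ugt2a, Ugt3a or Ugt2b, or with Sult and a number. This gave 146 of 32285 genes, made up of 82 Cyp, 22 Gst, 21 Ugt and 21 Sult genes. The symbol rule also takes in 1 pseudogene, Cyp2j7, and 1 antisense RNA, Cyp4x1os. No measured value entered that rule, though the set was chosen with earlier results of these data known.

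The study read nuclear RNA and open chromatin from the same nuclei of the striatum, with the 10x Genomics Multiome assay, in 32 mice aged 12 weeks. The mice were of 8 inbred strains with 4 mice each: 129S1/SvImJ, A/J, C57BL/6, NOD/ShiLtJ, NZO/HlLtJ, CAST/EiJ, PWK/PhJ and WSB/EiJ. Nuclei of 1 mouse of every strain were pooled in each of 4 batches, with 4 males and 4 females to a batch, and were later assigned to strains from their reads, so that a mouse is a strain within a batch. The comparison is between strains within a cell type, and no mouse received a treatment per the labels. CAST/EiJ, PWK/PhJ and WSB/EiJ are strains derived from wild mice, and the other 5 are classical laboratory strains. The deposited table of nuclei writes C57BL/6NJ where the design text writes C57BL/6J, and the strain is called C57BL/6 here. The sex of a single mouse could not be read from the labels, so the sexes within a strain are unknown here. Sex is in no model, and its part in the values was not tested.

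Cytochromes P450 are haem enzymes of the endoplasmic reticulum that insert an oxygen atom into drugs, fatty acids and steroids, with electrons passed on by the reductase Por. Gst enzymes then join the product to glutathione, Ugt enzymes to glucuronic acid and Sult enzymes to sulfate, which makes most compounds easier to export. The liver is their best known site; in the brain some of them act on the body's own lipids, such as arachidonic acid and steroids, and lie in astrocytes, oligodendrocytes and the cells of the blood vessels.

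The annotated nuclei numbered 55672 in 18 clusters, with 944 to 4416 per mouse (median 1613) and 3785535 to 23245935 counts per mouse (median 7543722). The median count per nucleus was lower in batch 3, at 3232, than in the other 3 batches, at 4593 to 4931. Of 42 markers for 9 clusters, 40 were highest in the cluster they mark, while Tac1 was highest in the second Drd1+ cluster and the mural gene Rgs5 in endothelium. Of 25 further markers 14 were highest in the cluster they were listed for: 5 of 9 for interneurons (Nxph1+), 4 of 4 for excitatory neurons (Slc17a7+), 2 of 4 for ependyma (Ttr and Kl were higher elsewhere), 3 of 3 for neuroblasts (cluster Unknown) and none of 5 for fibroblasts, whose cluster has too few libraries to be ranked. Batches shared 1517 of their 54141 cell barcodes (2.80%), and nuclei were therefore kept apart by batch. Counts were summed over each mouse's nuclei of a cluster, and p-values measure the spread between these mice.

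Few of these genes were abundant in striatal nuclei. At least 1 count was found for 137 of the 146, a share of 93.8% against 88.2% of all genes, and at least 100 counts for 47, a share of 32.2% against 58.3% of all genes. For a gene with few counts, the part of free RNA in them was not tested. The 9 genes without a count were Ugt1a1, Ugt2a2, Ugt2b38, Cyp2d12, Cyp2d40, Cyp3a41a, Cyp4a14, Gsta1 and Gstp3. The Gst genes gave 55.3% of the 94371 counts of the set (52215 counts), the Cyp genes 35.1% (33123), the Sult genes 9.38% (8854) and the Ugt genes 0.190% (179). The Gstm class alone gave 33.1% of the counts, the Cyp2 family 23.5% and the Cyp4 family 10.5%. Gstz1, the maleylacetoacetate isomerase of tyrosine breakdown, gave 10.5%, and Sult4a1, a brain sulfotransferase without a well-established substrate, gave 5.43%. The Cyp1 family, the textbook target of the dioxin receptor Ahr, gave 80 counts in all, and the Cyp3 family, which handles drugs and steroids in the liver, gave 930 (0.985%). No Ugt gene reached 100 counts: the highest were Ugt3a2 with 36, Ugt3a1 and Ugt1a6a with 30 each and Ugt1a7c with 25. The Ugt1a genes share their final exons and overlap on chromosome 1, so their counts could be split among them. No Ugt gene entered a strain test.

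In the levels by cell type, given as CPM, a gene's count over the library's total scaled to 1000000 (mean ± SD over mice with at least 10 nuclei in the cluster), glial and ependymal clusters were the highest for most of these genes. A level of 10 CPM or more in some cluster was reached by 31 of the 146 genes. By mean level their highest cluster was astrocytes for 8, ependyma for 6, oligodendrocytes for 5, endothelium and the second of the Slc17a7+ (excitatory neuron) clusters for 3 each, macrophages and polydendrocytes (oligodendrocyte precursors) for 2 each, and the first Slc17a7+ cluster and mural cells for 1 each. Several of these ranks were near ties within mice. Ependyma was above the next cluster in 4 (Cyp2j8) to 7 (Cyp4f17, Gstz1) of 12 mice for its genes. The second Slc17a7+ cluster was above the next in 6 (Gsta3) to 9 (Cyp4x1) of 16 mice. For Cyp4f16 polydendrocytes were above astrocytes in 9 of 27 mice and below in 13, and for Gstt2 mural cells were above endothelium in 8 of 20. Astrocytes and ependyma held 19 such genes each, oligodendrocytes 16 and endothelium 14, against 6 in Drd1+ and 5 in Drd2+ neurons, the projection neurons of the direct and indirect pathways. The clusters were made from the same counts, so these levels are a description without a test.

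**Figure D1:**
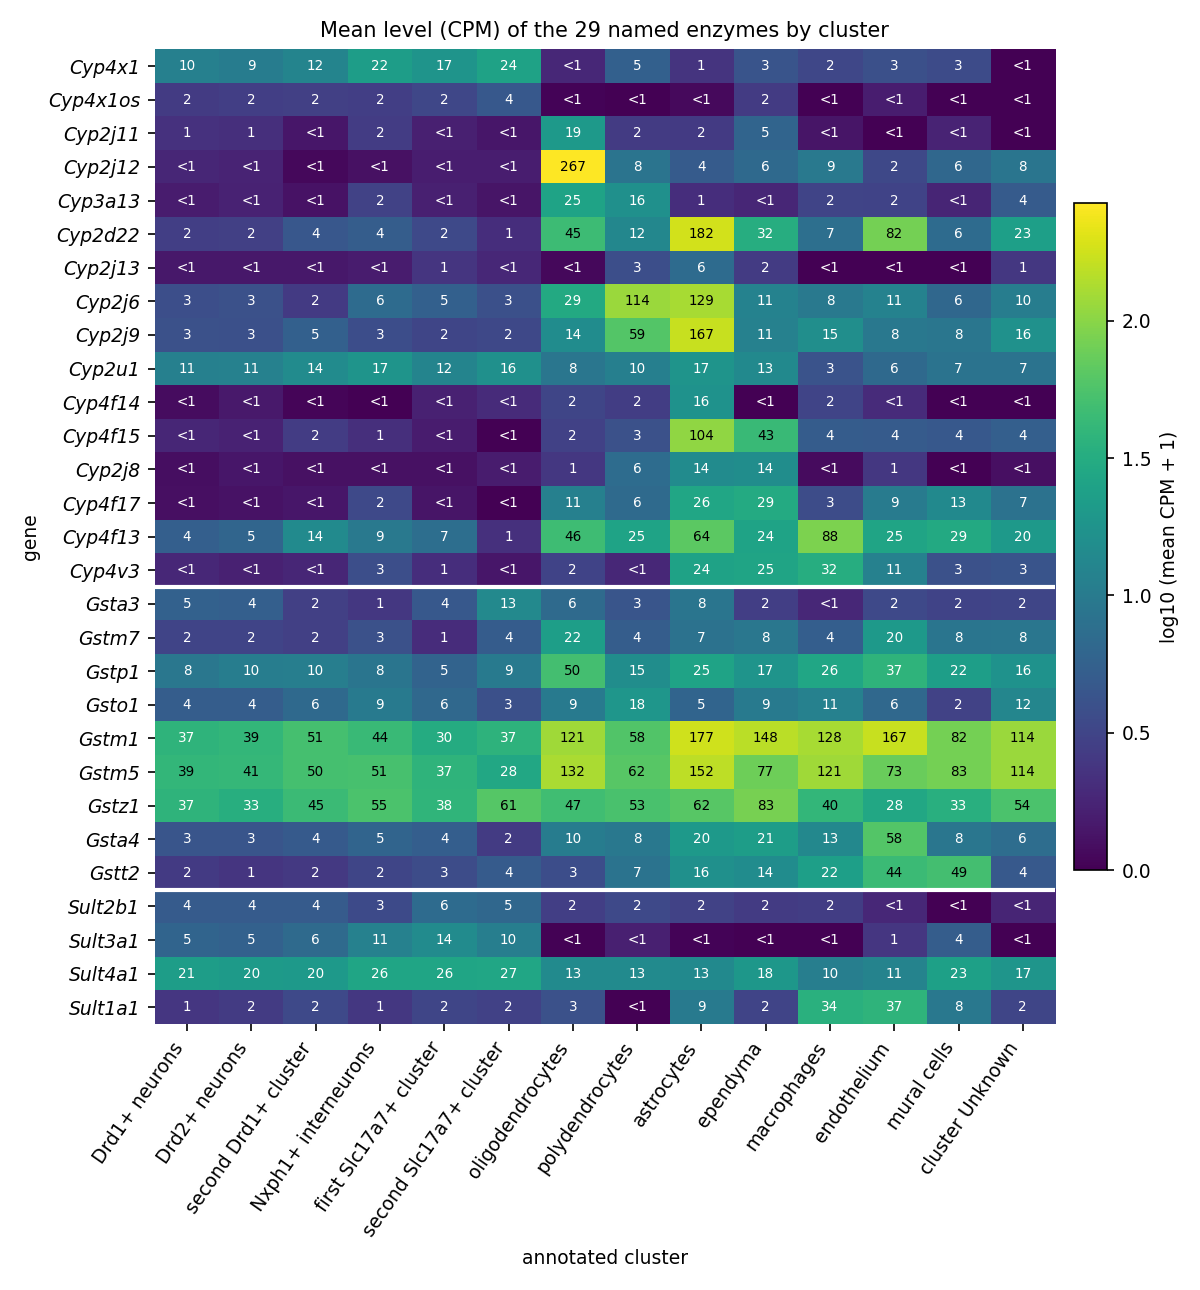
Mean level in CPM (colour, log scale as labelled on the bar) of the 29 named genes, in rows, across the 14 clusters with at least 10 libraries, in columns. Cyp2j12 stands at 267 CPM in oligodendrocytes and 0.807 CPM in Drd1+ neurons, and Cyp4x1 is highest in the second Slc17a7+ cluster at 24.1 CPM.

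Among the Cyp2 genes, Cyp2j12 was an oligodendrocyte gene. It stood at 267 ± 133 CPM there (n = 32) and at 8.64 ± 11.4 CPM in macrophages, the next cluster, and was higher in oligodendrocytes in 32 of 32 mice. Cyp2d22, of the P450 subfamily that oxidises many drugs and amines, was highest in astrocytes at 182 ± 81.9 CPM (n = 32). Endothelium followed at 81.9 ± 38.1 CPM (n = 29), below astrocytes in 29 of 29 mice, and oligodendrocytes at 44.8 ± 82.0 CPM, an SD wider than the mean that comes from the strains below. Cyp2j9 was an astrocyte gene as well, at 167 ± 34.7 CPM against 58.5 ± 39.1 CPM in polydendrocytes and higher in 27 of 27 mice. Some Cyp2j enzymes turn arachidonic acid into epoxides. Cyp2j6 did not separate these clusters: it stood at 129 ± 31.5 CPM in astrocytes and 114 ± 55.8 CPM in polydendrocytes, and astrocytes were higher in 18 of 27 mice. Cyp2u1, a hydroxylase of long-chain fatty acids, stood at 17.1 ± 9.21 CPM in astrocytes, 17.1 ± 12.4 CPM in Nxph1+ interneurons and 3.21 CPM in macrophages, its lowest cluster. Cyp2j8 was low, at 14.5 CPM in ependyma and 13.8 ± 10.3 CPM in astrocytes, and so was Cyp2j13 at 6.05 ± 13.2 CPM in astrocytes.

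The Cyp4 genes, most of which hydroxylate the ends of fatty acids and leukotrienes, differed in their highest cluster. Cyp4f13 was highest in macrophages, the cluster that holds microglia, at 88.0 ± 44.0 CPM, and stood at 64.0 ± 21.5 CPM in astrocytes, with macrophages higher in 24 of 32 mice. Cyp4f15 reached 104 ± 33.1 CPM in astrocytes and 43.1 ± 35.1 CPM in ependyma, and astrocytes were higher in 12 of 12 mice. Cyp4f14, at 16.3 ± 10.1 CPM in astrocytes, was higher there than in oligodendrocytes (2.2 CPM) in 31 of 32 mice. Cyp4f17 lay in ependyma (29.3 ± 21.0 CPM) and astrocytes (26.3 ± 10.6 CPM), which overlapped, and Cyp4v3, a fatty acid hydroxylase, in macrophages (31.8 ± 17.9 CPM), ependyma (25.0 CPM) and astrocytes (24.3 ± 15.4 CPM). Cyp4x1, a P450 known for its brain expression, was highest in neurons, at 24.1 ± 17.2 CPM in the second Slc17a7+ cluster (n = 16), 21.7 ± 16.4 CPM in Nxph1+ interneurons and 10.3 CPM in Drd1+ neurons. Cyp3a13 was low and oligodendroglial, at 24.8 ± 13.3 CPM in oligodendrocytes and 15.6 ± 18.2 CPM in polydendrocytes, with oligodendrocytes higher in 19 of 27 mice.

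Among the Gst genes, Gstm1 stood at 177 ± 32.4 CPM in astrocytes, 167 ± 86.2 CPM in endothelium and 37.0 CPM in Drd1+ neurons, with astrocytes above endothelium in 17 of 29 mice. Gstm5 stood at 152 ± 29.4 CPM in astrocytes, 132 ± 40.1 CPM in oligodendrocytes and 39.4 CPM in Drd1+ neurons. Gstz1 was lowest in endothelium at 27.7 CPM. It stood at 36.7 CPM in Drd1+ neurons, 61.6 ± 19.5 CPM in astrocytes and 83.3 ± 42.7 CPM in ependyma (n = 12). Gstp1, a pi-class enzyme, was highest in oligodendrocytes at 49.6 ± 17.5 CPM, and Gstm7 was even between oligodendrocytes (21.8 ± 9.93 CPM) and endothelium (19.5 ± 15.1 CPM). Vascular clusters led for Gsta4, which conjugates the aldehydes of lipid peroxidation (58.5 ± 76.6 CPM in endothelium, n = 29, with a median of 22.7 CPM in the 21 mice outside C57BL/6 and 129S1/SvImJ, against 21.3 CPM in ependyma), and for Gstt2 (49.0 ± 37.4 CPM in mural cells, n = 20, and 44.4 ± 26.3 CPM in endothelium). Gsto1, of the omega class, was highest in polydendrocytes at 18.0 ± 19.7 CPM.

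Of the sulfotransferases, Sult4a1 was found in all 14 clusters compared, at 26.6 ± 15.5 CPM in the second Slc17a7+ cluster, 26.0 ± 16.7 CPM in Nxph1+ interneurons, 21.2 CPM in Drd1+ neurons, 13.4 CPM in oligodendrocytes and 9.82 CPM in macrophages, its lowest cluster, and the highest was 1.46 times the median of the others. Sult1a1, the phenol sulfotransferase, was highest in endothelium (37.0 ± 31.3 CPM) and macrophages (34.2 ± 25.4 CPM), and neither led, with endothelium higher in 16 of 29 mice. Sult2b1, which sulfates cholesterol and other hydroxysteroids, was low, at 6.06 CPM in the first Slc17a7+ cluster and 4.03 CPM in Drd1+ neurons. Cyp1b1, named after its values were seen, had 32 of its 75 counts in the fibroblast nuclei of all mice together. Its mean of 93.2 CPM there comes from only 2 libraries of at least 10 nuclei, which hold only a part of those counts.

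Strain differences were tested in 9 clusters with at least 3 mice of every strain, in a model of strain and batch fitted to all genes, with calls at an adjusted p under 0.05 (edgeR quasi-likelihood F test of the strain term, Benjamini-Hochberg over all genes of the cluster). Enough counts for a test in some cluster were present for 32 of the 146 genes, and 22 of those were called in at least 1 cluster, against 72.3% of all genes tested in at least 1. In Drd1+ neurons 8 of 18 tested were called, against 61.7% of all genes tested there. Drd2+ neurons gave 8 of 17, against 55.9% of all genes, oligodendrocytes 8 of 16, against 34.8%, and astrocytes 8 of 16, against 21.5%. Macrophages gave 1 of 3, against 24.8%, and endothelium 2 of 6, against 3.23%. None was called of 3 in the second Drd1+ cluster, against 17.3%, of 2 in Nxph1+ interneurons, against 1.53%, or of 1 in polydendrocytes, against 1.24%, and in these clusters none had an unadjusted p under 0.05 either. The members' share was below that of all genes in both kinds of projection neuron and above it in astrocytes, oligodendrocytes, endothelium and macrophages, and the difference between these shares was not tested. The macrophage order rests on 1 of 3 genes. It reversed without the filter on low counts, with 1 of 67 members called against 6.70% of all genes. The counts called with the filter moved with single batches. Without batch 1 they fell to 2 in astrocytes and 5 in Drd2+ neurons. They fell to 4 in astrocytes without batch 2 and to 5 in oligodendrocytes without batch 4. Macrophages had 0 without batch 1 and endothelium 1 without batch 1, 2 or 4. The share of all genes called was not compared in these smaller fits.

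The filter on low counts works by strain, so a gene can pass it through its high strain alone, and is then tested because that strain is high. Of the 82 pairs of a member and a cluster that were tested, 12 passed through the highest strain alone, with 7 of them called, and 9 through the 2 highest strains, with 3 called. The 10 called are Sult3a1 and Cyp4x1os in Drd1+ and in Drd2+ neurons, Gstm7 in Drd1+ neurons, Cyp2j8 and Cyp4f14 in astrocytes, Cyp2d22 and Cyp2j11 in oligodendrocytes and Gsta4 in endothelium. All 10 were called as well in the fit without the filter, but their values are given below as a description, with no test.

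**Figure D2:**
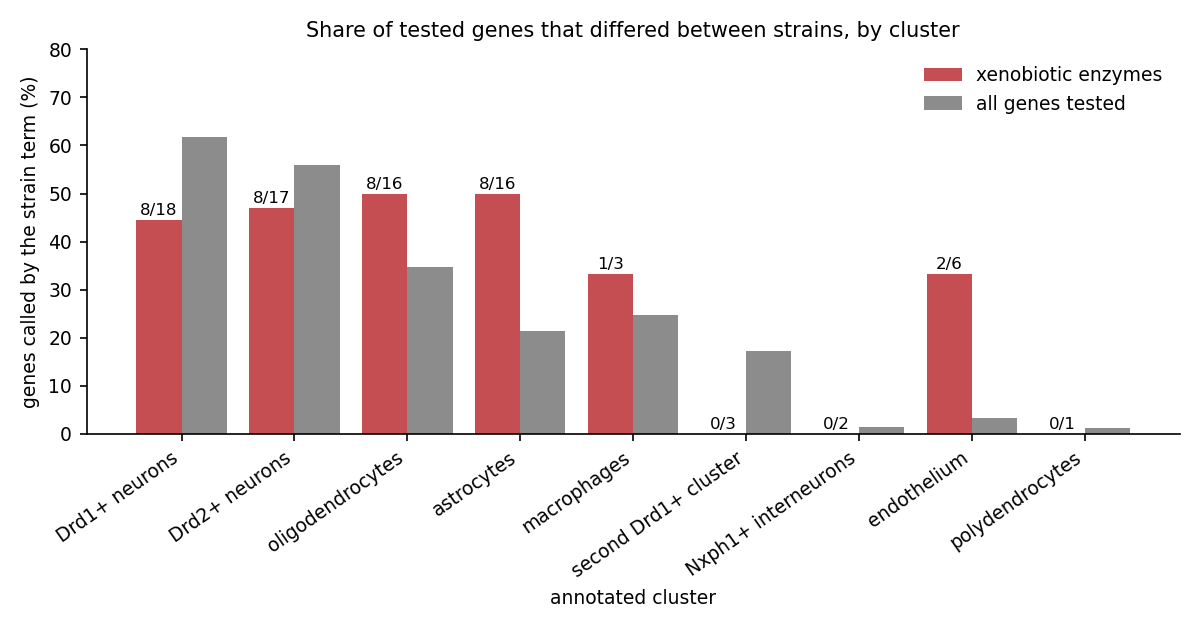
Percent of genes called by the strain term in each of the 9 clusters with a strain test, for the drug-metabolism genes and for all genes tested, with the numbers called and tested printed by the bars. The members lie below all genes in Drd1+ neurons (8 of 18 against 61.7%) and above them in astrocytes (8 of 16 against 21.5%).

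The sum over all nuclei of a mouse called 30 of 41 members, against 66.7% of all genes. In that sum, fewer nuclei of a type and less RNA per nucleus cannot be told apart. By family, 12 of 16 tested Cyp genes, 7 of 12 Gst genes and 3 of 4 Sult genes were called in some cluster, to be read against the 72.3% of all genes. These counts include Cyp2j8, Cyp2j11, Cyp4f14, Cyp4x1os, Gsta4 and Sult3a1. Each of them was called only in clusters where it passed the filter through its 1 or 2 highest strains. The 10 tested in a cluster but called in none were Cyp2j9, Cyp2u1, Cyp4f17, Cyp4v3, Gstk1, Gstm1, Gsto2, Gstp1, Gstt2 and Sult1a1, of which Cyp2u1, Cyp4v3, Gsto2, Gstt2 and Sult1a1 were called in the sum over all nuclei. Reads of all strains were counted on 1 reference, mm10, per the submitters' processing notes, and the part that sequence differences from that reference have in the values of any strain was not tested.

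Cyp2d22 (chr15:82370527-82380260, mm10) was called in astrocytes and endothelium and is described in oligodendrocytes. The values by strain are CPM over totals scaled by TMM within the cluster, a scale close to that of the levels above. In oligodendrocytes the 4 PWK/PhJ mice had 194, 170, 358 and 267 CPM (247 ± 84.7, SD, n = 4), the CAST/EiJ mice 58.2, 65.7, 52.0 and 53.0 CPM, and the other 24 mice 4.54 to 25.0 CPM with a median of 9.11. PWK/PhJ mice were above all others and CAST/EiJ mice above all but PWK/PhJ, without overlap. The mean of PWK/PhJ was 14.5 times that of the other 28 mice.

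In astrocytes CAST/EiJ had the higher mean of these strains. The CAST/EiJ mice had 374, 335, 331 and 345 CPM of Cyp2d22 (346 ± 19.2), the PWK/PhJ mice 255, 248, 391 and 272 CPM, and the other 24 mice 93.5 to 237 CPM with a median of 146. Mice of both strains were above the other 24 without overlap, but overlapped each other through 1 PWK/PhJ mouse. The strain term gave F = 21.6 (adjusted p = 5.36e-15, edgeR), with CAST/EiJ higher by 1.16 (SE 0.12, adjusted p = 1.11e-13) and PWK/PhJ by 0.75 (SE 0.13, adjusted p = 3.84e-06) on the log2 scale. In endothelium the CAST/EiJ mice had 210, 160 and 152 CPM and the A/J mice 47.9, 47.0 and 31.8 CPM, with 1 library of each strain under the limit on nuclei. The range of the other strains reached up to 174 CPM and met that of CAST/EiJ. That call (F = 6.11, adjusted p = 0.00476, edgeR) was lost without batch 1 (0.238), batch 2 (0.137) or batch 4 (0.0852).

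The contrast between the glial types is clearest as a ratio. Cyp2d22 in oligodendrocytes stood at 84.9% of its astrocyte level in PWK/PhJ, at 16.5% in CAST/EiJ and at 3.62% to 9.43% in the other strains. The log2 ratio of oligodendrocytes to astrocytes (with 1 CPM added to each) was -0.27 ± 0.24 in PWK/PhJ, -2.58 ± 0.17 in CAST/EiJ and between -4.57 in C57BL/6 and -3.35 in WSB/EiJ in the rest. The strain by cluster interaction of these cell types gave an adjusted p of 6.72e-32 for Cyp2d22 (edgeR, with the mouse as a block). The summed level of all 5 astrocyte markers in oligodendrocyte libraries was 629 to 983 CPM in the PWK/PhJ mice and 329 to 891 CPM in the mice of the other strains. On the strain means this was 8.71% of the astrocyte level for PWK/PhJ, while the remaining strains had 5.74% to 6.95%, and the part of astrocyte RNA in the Cyp2d22 level of oligodendrocytes was not tested.

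The Cyp2j genes lie side by side on chromosome 4, 8 of them within 621.512 kb (chr4:96042660-96664171). Their promoters are shown because neighbours in this cluster, all with a deposited accessible peak over the window, differed in their strain calls: Cyp2j12 and Cyp2j6 were called in oligodendrocytes and Cyp2j9 in no cluster, while Cyp2j11 is described with no test. Each line gives the 250 bases before the start of transcription, 5′ to 3′ on the minus strand, from RefSeq on GRCm38.p6; capitals mark GCGTG, the core of the response element bound by the Ahr dimer, searched on both strands. The windows are chr4:96141153-96141402 for Cyp2j12, chr4:96348681-96348930 for Cyp2j11, chr4:96553652-96553901 for Cyp2j6 and chr4:96591486-96591735 for Cyp2j9. Those of Cyp2j6 and Cyp2j9 lie inside the RefSeq gene models and not at their outer 5′ ends.
Cyp2j12: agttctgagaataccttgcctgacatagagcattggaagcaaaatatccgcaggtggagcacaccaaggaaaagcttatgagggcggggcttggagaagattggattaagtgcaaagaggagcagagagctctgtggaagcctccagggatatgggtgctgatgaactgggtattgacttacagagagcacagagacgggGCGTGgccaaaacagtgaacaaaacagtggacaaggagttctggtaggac
Cyp2j11: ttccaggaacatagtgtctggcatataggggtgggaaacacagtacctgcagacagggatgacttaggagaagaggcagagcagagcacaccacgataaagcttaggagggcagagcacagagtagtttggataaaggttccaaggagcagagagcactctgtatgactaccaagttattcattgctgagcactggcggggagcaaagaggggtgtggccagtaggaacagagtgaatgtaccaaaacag
Cyp2j6: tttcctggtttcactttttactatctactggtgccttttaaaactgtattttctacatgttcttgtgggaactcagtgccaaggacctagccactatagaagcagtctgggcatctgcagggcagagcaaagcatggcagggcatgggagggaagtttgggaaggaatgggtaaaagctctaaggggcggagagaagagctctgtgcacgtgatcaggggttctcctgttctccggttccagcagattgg
Cyp2j9: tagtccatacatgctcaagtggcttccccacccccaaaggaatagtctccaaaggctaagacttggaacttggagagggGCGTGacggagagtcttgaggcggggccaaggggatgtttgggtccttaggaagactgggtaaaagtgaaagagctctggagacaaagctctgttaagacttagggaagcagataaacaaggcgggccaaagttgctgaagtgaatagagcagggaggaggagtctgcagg

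GCGTG occurs once each in the Cyp2j12 and Cyp2j9 windows and in neither of the other two. Over all 32851 windows of this length in the RefSeq table it was in 28.2%, and over the 141 windows of member genes in 17.7%. Pairwise identity in a global alignment ran from 46.0% for Cyp2j6 with Cyp2j9 to 54.3% for Cyp2j12 with Cyp2j9. The other motifs searched on both strands were TGACNNNGC, the core of the antioxidant response element, in 10.2% of all windows and 3.55% of member windows, TATAAA in 12.4% and 27.7%, and ACAAAG, a core bound by SOX factors, in 16.5% and 23.4%. Of the windows printed, only that of Cyp2j9 holds ACAAAG, and none holds TGACNNNGC or TATAAA. The windows are those of the reference and carry no strain's own bases.

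Cyp2j12 had 3 levels among strains in oligodendrocytes. The CAST/EiJ mice had 500, 444, 608 and 562 CPM (529 ± 71.6), the PWK/PhJ mice 340, 424, 547 and 440 CPM, the NZO/HlLtJ mice 133, 156, 136 and 156 CPM (145 ± 12.2), and the other 20 mice 170 to 283 CPM with a median of 205. CAST/EiJ and PWK/PhJ overlapped each other and lay above the rest, and all NZO/HlLtJ mice lay below the other 28. The strain term gave F = 59.0 (adjusted p = 7.69e-30, edgeR), with log2 differences of 1.23 (SE 0.08) in CAST/EiJ, 0.88 (SE 0.08) in PWK/PhJ and -0.89 (SE 0.10, adjusted p = 8.59e-12) in NZO/HlLtJ.

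Cyp2j11 was present in oligodendrocytes of PWK/PhJ and CAST/EiJ and near zero in the other strains. The PWK/PhJ mice had 108, 141, 140 and 105 CPM (123 ± 19.8) and the CAST/EiJ mice 48.2, 39.8, 20.8 and 23.0 CPM. The other 24 mice had 7 counts together, 0.404 CPM when pooled, with 17 mice at 0 and none above 2.07 CPM. The 3 sets of mice did not overlap. In Drd1+ neurons its mean level was 1.22 CPM. The log2 ratio of oligodendrocytes to Drd1+ neurons for Cyp2j11, with 1 CPM added, was 5.39 in PWK/PhJ, 3.55 in CAST/EiJ and -0.99 to -0.12 in the other strains. The part of reads shared among the Cyp2j genes and the pseudogene Cyp2j7 (86 counts) was not tested.

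Cyp2j6 in oligodendrocytes was 56.5, 43.8, 67.6 and 44.2 CPM in CAST/EiJ and 2.18 to 44.3 CPM in the other mice, which met at the edge. CAST/EiJ was higher by 0.95 on the log2 scale (SE 0.25, adjusted p = 0.00513; strain term F = 3.35, adjusted p = 0.0228, edgeR). Its interaction of astrocytes with oligodendrocytes had an adjusted p of 0.00127, which was 0.0523 without batch 2 and 0.0650 without the mouse as a block. Cyp2j8 in astrocytes was 27.7, 29, 25.7 and 21.5 CPM in WSB/EiJ and 5.90, 2.77, 0 and 12.8 CPM in CAST/EiJ, and these strains did not overlap, while the other 24 mice spanned both at 0 to 37.0 CPM. Cyp2j9 was not called in any of its 4 clusters; in astrocytes its strain means lay between 148 CPM (A/J) and 221 ± 69.1 CPM (WSB/EiJ) (adjusted p = 0.315, edgeR).

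**Figure D3:**
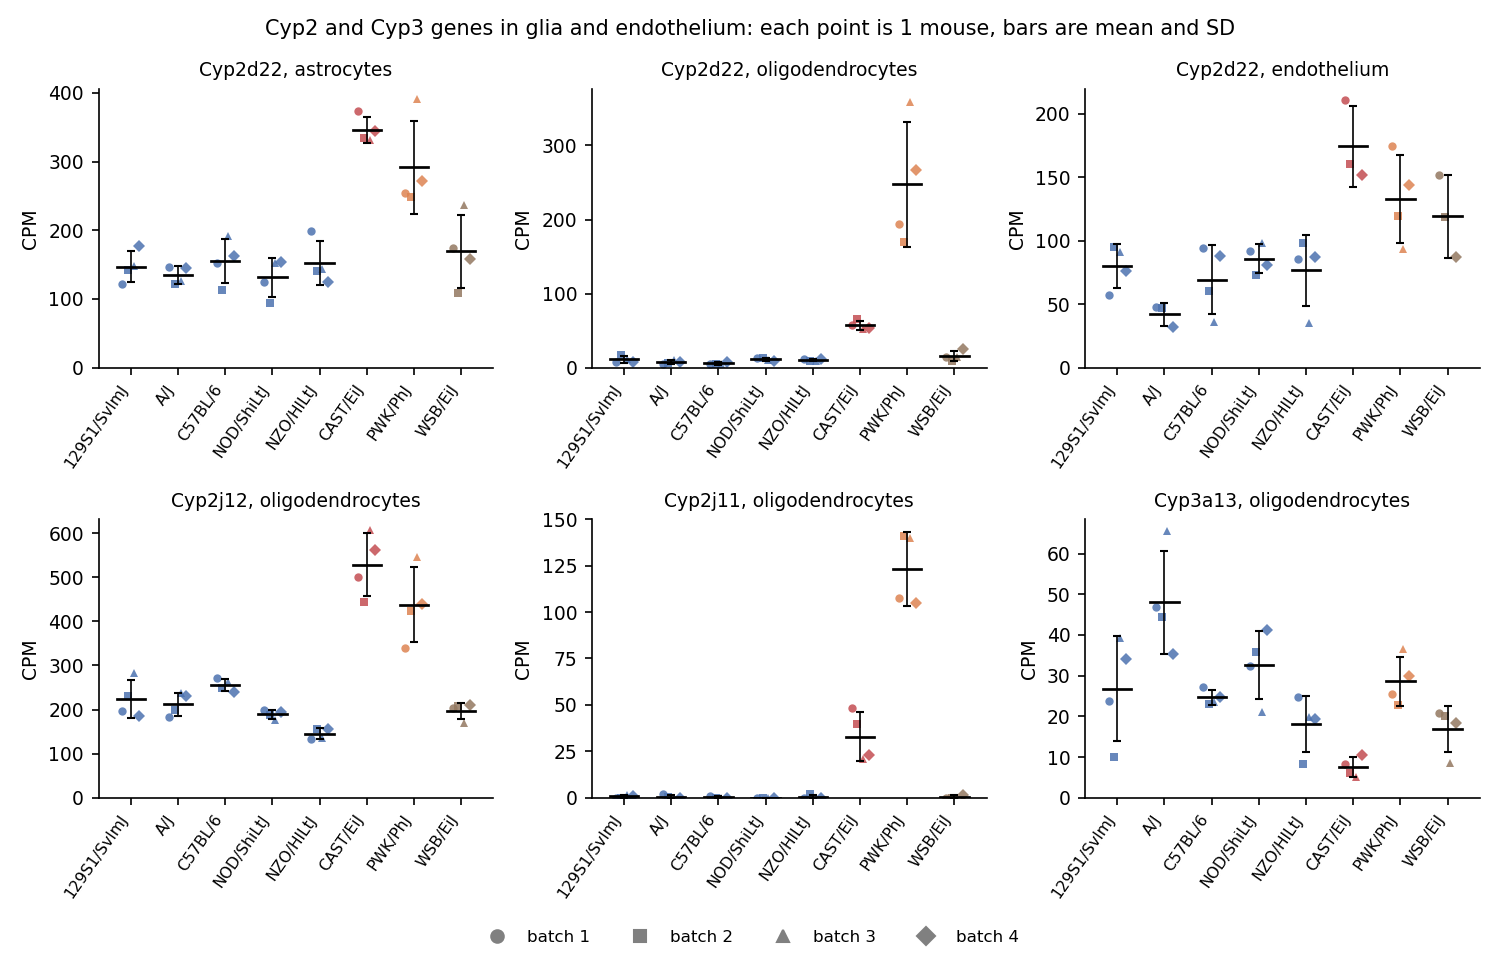
CPM of each mouse by strain for Cyp2d22 in astrocytes, oligodendrocytes and endothelium and for Cyp2j12, Cyp2j11 and Cyp3a13 in oligodendrocytes; a point is 1 mouse, its shape the batch, and bars are mean and SD (colour: classical strains blue, CAST/EiJ red, PWK/PhJ orange, WSB/EiJ brown). PWK/PhJ stands alone for Cyp2d22 in oligodendrocytes at 170 to 358 CPM, while CAST/EiJ leads in astrocytes; A/J has the highest mean for Cyp3a13.

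Cyp3a13 (chr5:137892933-137925610), a Cyp3a enzyme and the only one of its subfamily with enough counts for a cluster's test, followed a different strain order in the same cells. The A/J mice had 47.0, 44.4, 65.5 and 35.2 CPM in oligodendrocytes (48.0 ± 12.7), the CAST/EiJ mice 8.31, 5.98, 5.20 and 10.6 CPM (7.52 ± 2.44), and the other 24 mice 8.30 to 41.1 CPM with a median of 23.7. A/J and CAST/EiJ did not overlap each other, and both overlapped the rest. The strain term gave F = 10.8 (adjusted p = 7.46e-09, edgeR), with A/J higher by 1.19 (SE 0.18) and CAST/EiJ at -1.69 (SE 0.33) on the log2 scale. CAST/EiJ was thus the highest strain for Cyp2j12 and the lowest for Cyp3a13 in the same libraries.

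Cyp4f13, Cyp4f14 and Cyp4f15 are neighbours on chromosome 17 (32685631 to 32947415), and each had its own order of strains. Cyp4f13 was called in all 5 clusters where it was tested. In Drd1+ neurons the NOD/ShiLtJ mice had 0.891, 0.337, 1.14 and 1.37 CPM, 9 counts in all, and the other 28 mice 1.40 to 9.89 CPM with a median of 4.87. Every NOD/ShiLtJ mouse was below every other mouse, and A/J mice were high with 9.28, 7.36, 9.89 and 6.55 CPM. The strain term gave F = 8.77 (adjusted p = 5.51e-06, edgeR), with NOD/ShiLtJ at -2.34 (SE 0.42, adjusted p = 4.69e-05) and A/J at 1.23 (SE 0.20) on the log2 scale. Drd2+ neurons had the same low strain: NOD/ShiLtJ mice had 0, 1.35, 0.594 and 0 CPM, and the other 28 had 1.12 to 9.66 CPM, with 1 NOD/ShiLtJ mouse inside their range (F = 7.94, adjusted p = 1.37e-05, edgeR).

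Glia showed that deficit less. In oligodendrocytes Cyp4f13 stood at 21.9, 24.8, 40.5 and 27.4 CPM in NOD/ShiLtJ and at 67.6, 56.7, 60.8 and 61.9 CPM in PWK/PhJ, and NOD/ShiLtJ overlapped the other mice (F = 5.25, adjusted p = 0.00025, edgeR; NOD/ShiLtJ -0.85, SE 0.17). In astrocytes PWK/PhJ was the high strain at 114, 116, 116 and 88.3 CPM, C57BL/6 the low one at 49.7 ± 16 CPM, and NOD/ShiLtJ lay within the range of the others. That astrocyte call (F = 3.59, adjusted p = 0.0119, edgeR) was lost without batch 1 (0.223) or batch 2 (0.245). In macrophages Cyp4f13 was 136, 166, 210 and 173 CPM in PWK/PhJ, 166, 156, 248 and 77.9 CPM in CAST/EiJ and 71.7 ± 49.9 CPM in 129S1/SvImJ, with overlap, and the call (F = 3.98, adjusted p = 0.00454, edgeR) was lost without batch 1 (0.0539). The difference between cell types was tested directly: the interaction over Drd1+ neurons and astrocytes had an adjusted p of 1.65e-06, and the log2 ratio of astrocytes to Drd1+ neurons was 5.03 ± 0.33 in NOD/ShiLtJ, 4.64 ± 0.64 in PWK/PhJ and 2.78 to 3.96 in the other strains.

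Cyp4f15 and Cyp4f14 were tested in astrocytes only. The PWK/PhJ mice had 42.5, 65.9, 73.9 and 38.8 CPM of Cyp4f15 (55.3 ± 17.3) and the other 28 mice 71.0 to 185 CPM with a median of 112. PWK/PhJ was the low strain, with 1 of its mice above the lowest of the others (F = 8.53, adjusted p = 1.12e-06, edgeR; log2 difference -1.18, SE 0.20, adjusted p = 4.21e-06). The highest mean was that of A/J at 153 ± 14.3 CPM, with an excess of 0.59 on the log2 scale. Without batch 4 that excess was 0.49 and no longer called (adjusted p = 0.0996, edgeR). For Cyp4f14 the NOD/ShiLtJ mice had 42.8, 30.5, 37.0 and 27.3 CPM, the CAST/EiJ mice 1.97, 8.30, 0 and 3.20 CPM, and the other 24 mice 4.84 to 35 CPM with a median of 15.2. NOD/ShiLtJ and CAST/EiJ did not overlap each other, and NOD/ShiLtJ overlapped the upper part of the rest. NOD/ShiLtJ had the lowest mean of Cyp4f13 in projection neurons and the highest of Cyp4f14 in astrocytes. Cyp4f16, named after its values were seen, was lowest in WSB/EiJ at 0.220 CPM over all nuclei and highest in NOD/ShiLtJ at 2.68 CPM (adjusted p = 4.81e-08, edgeR).

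**Figure D4:**
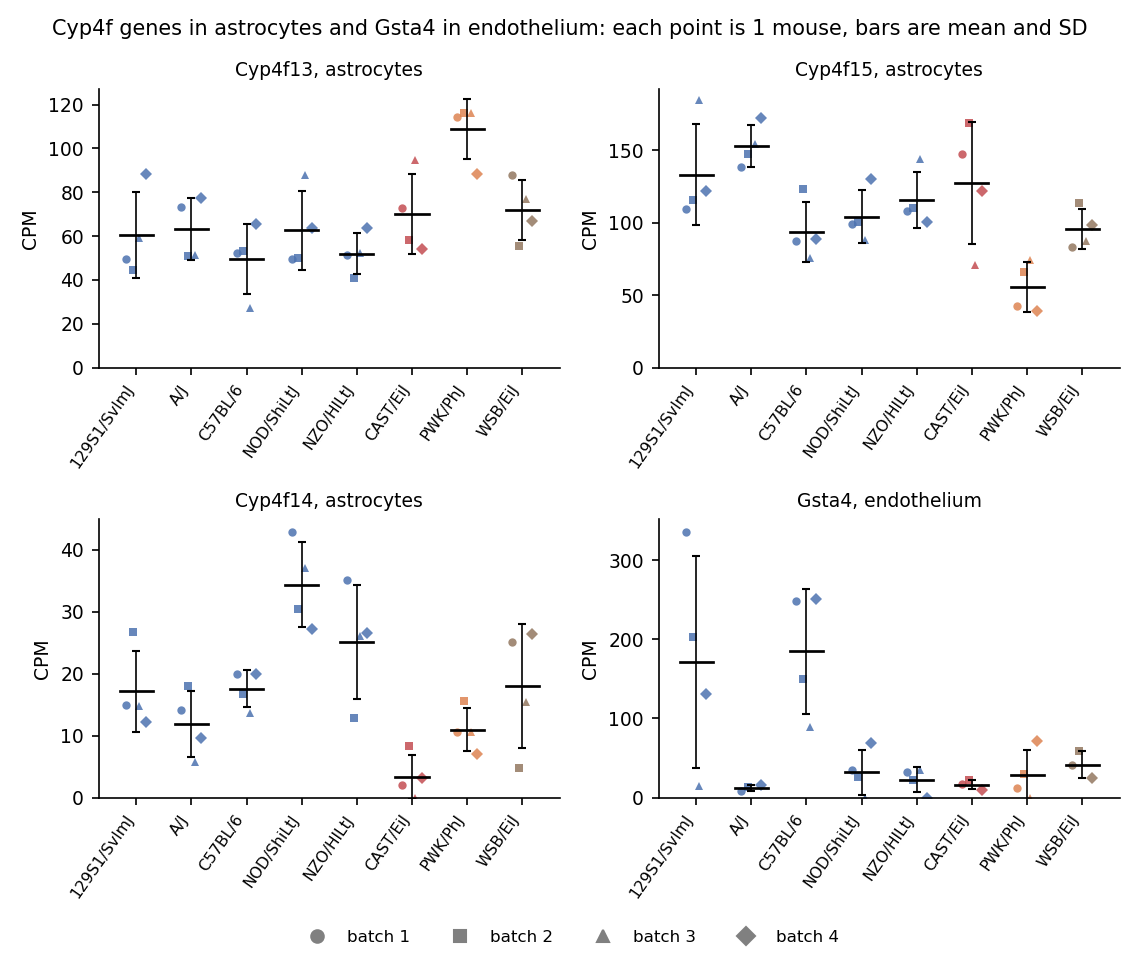
CPM of each mouse by strain for Cyp4f13, Cyp4f15 and Cyp4f14 in astrocytes and for Gsta4 in endothelium; a point is 1 mouse, its shape the batch, and bars are mean and SD. PWK/PhJ is highest for Cyp4f13 and lowest for its neighbour Cyp4f15, and the Gsta4 values of 129S1/SvImJ run from 15.2 to 335 CPM.

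Cyp4x1 and its antisense RNA Cyp4x1os overlap by 248 bases on chromosome 4, and Cyp4x1 was called in Drd1+ and Drd2+ neurons. In Drd1+ neurons Cyp4x1 stood at 14.1, 11.3, 14.5 and 18.4 CPM in WSB/EiJ, 13.8, 12.5, 15.9 and 15.4 CPM in NOD/ShiLtJ, 10.9, 10.4, 11.4 and 18.1 CPM in PWK/PhJ and 12.9, 9.39, 11.3 and 11 CPM in CAST/EiJ. The 16 mice of the other 4 strains had 4.45 to 10.3 CPM with a median of 7.04. The 12 mice of WSB/EiJ, NOD/ShiLtJ and PWK/PhJ were all above those 16, and CAST/EiJ met their upper edge (F = 10.9, adjusted p = 4.95e-07, edgeR). Against the mean of the other 7 strains, Cyp4x1 was higher by 0.66 in WSB/EiJ (SE 0.15) and 0.63 in NOD/ShiLtJ (SE 0.16) on the log2 scale. The call for PWK/PhJ (0.44) was lost without batch 4 (adjusted p = 0.325), and so was that for A/J (-0.62; 0.0673). In Drd2+ neurons CAST/EiJ had the highest mean, 13.8 ± 4.60 CPM, and 129S1/SvImJ the lowest, 5.63 ± 0.935 CPM (F = 9.57, adjusted p = 1.77e-06, edgeR).

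Cyp4x1os was a CAST/EiJ transcript by comparison. The CAST/EiJ mice had 5.54, 5.50, 4.86 and 5.72 CPM in Drd1+ neurons and the other 28 mice 0 to 2.78 CPM with a median of 1.09, without overlap, and its mean was 4.89 times theirs. Drd2+ neurons of CAST/EiJ mice had 4.84 to 7.15 CPM and those of the others 0 to 3.78 CPM, again without overlap. How reads are split between Cyp4x1 and Cyp4x1os where they overlap was not tested.

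Among the alpha-class Gst genes, Gsta3 was low in CAST/EiJ neurons. In Drd1+ neurons the CAST/EiJ mice had 1.06, 1.29, 0.540 and 1.63 CPM and the other 28 mice 1.96 to 10.1 CPM. The PWK/PhJ mice had 1.96, 2.08, 2.10 and 4.00 CPM, the first 3 being the lowest of those 28, and NOD/ShiLtJ had the highest mean at 6.93 ± 2.47 CPM. CAST/EiJ lay below all others without overlap (F = 9.77, adjusted p = 1.66e-06, edgeR; log2 difference -2.14, SE 0.33). The contrasts of Gsta3 for the next strains were less firm: that of PWK/PhJ was lost without batch 1 (0.139) or batch 2 (0.109) and that of NOD/ShiLtJ without batch 1 (0.0562) or batch 2 (0.159). In Drd2+ neurons CAST/EiJ was again the lowest at 1.82 ± 1.08 CPM (F = 3.93, adjusted p = 0.00485, edgeR; log2 difference -1.40, SE 0.34).

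Gsta4 was not called in the other 3 clusters where it was tested and is described here in endothelium. The C57BL/6 mice had 249, 150, 89.0 and 251 CPM (185 ± 79.3), the 129S1/SvImJ mice 335, 202, 15.2 and 131 CPM (171 ± 130), the A/J mice 7.98, 13.1 and 15.9 CPM, and the 21 mice of all strains but C57BL/6 and 129S1/SvImJ 0 to 72 CPM with a median of 22.7. The C57BL/6 mice were all above those 21, and so were 3 of the 4 129S1/SvImJ mice. The summed level of all 5 mural markers in endothelium was 168 to 5304 CPM in C57BL/6 mice, 299 to 3621 CPM in 129S1/SvImJ mice and 204 to 5041 CPM in the mice of the other strains, and its part in the Gsta4 difference was not tested.

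Of the mu class, Gstm7 was high in CAST/EiJ. Its mice had 29.9, 43.8, 46.8 and 51.2 CPM in oligodendrocytes and the other 28 mice 7.18 to 30.2 CPM with a median of 18.5, so that 3 of the 4 CAST/EiJ mice were above all others (log2 difference 1.11, SE 0.22, adjusted p = 3.05e-05, edgeR). The strain term for Gstm7 in oligodendrocytes (F = 4.46, adjusted p = 0.00123) was lost without batch 4 (0.107). In Drd1+ neurons CAST/EiJ stood at 4.77 ± 0.618 CPM and the other mice at 0.301 to 3.96 CPM. Gstm5 was called in astrocytes alone of 8 clusters, with CAST/EiJ at 226, 227, 189 and 195 CPM against 95.1 to 194 CPM in the other mice (adjusted p = 0.0193, edgeR), and lost that call without batch 1 (0.143), batch 2 (0.195) or batch 4 (0.152). Gstm1, the mu-class gene best known from drug metabolism, was not called in any of 7 clusters.

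Gstz1 was called in 3 of 6 clusters. In Drd1+ neurons the NOD/ShiLtJ mice had 42.3, 40.8, 46.0 and 55.2 CPM, the C57BL/6 mice 28.3, 27.1, 31.6 and 26.8 CPM, and the other 24 mice 27.1 to 46.9 CPM with a median of 36.3. NOD/ShiLtJ and C57BL/6 did not overlap each other (F = 7.09, adjusted p = 4.63e-05, edgeR), and the log2 differences were 0.40 (SE 0.08) and -0.39 (SE 0.09). The same strains were highest and lowest for Gstz1 in oligodendrocytes, at 60.0 and 34.4 CPM (adjusted p = 0.0338, edgeR), while in astrocytes these were WSB/EiJ at 79.1 CPM and CAST/EiJ at 36.9 CPM (adjusted p = 0.0384, edgeR). The strain by cluster interaction for Gstz1 was not called over astrocytes and oligodendrocytes (adjusted p = 0.358, edgeR). Over Drd1+ neurons and astrocytes it was called (adjusted p = 0.0394, edgeR) but lost without every batch in turn. Gsto1 in Drd1+ neurons ranged from 2.40 CPM in C57BL/6 to 5.58 CPM in 129S1/SvImJ (F = 2.82, adjusted p = 0.0283, edgeR), and C57BL/6 differed from the other 7 strains by -0.86 (SE 0.27) on the log2 scale. Gstp1 was not called in any of its 4 clusters. Gstt1, named after its values were seen, had its lowest astrocyte mean in WSB/EiJ, 8.10 CPM, and its highest in C57BL/6, 27.6 CPM.

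Sult3a1 (chr10:33851020-33879475), a sulfotransferase of amines, was found in CAST/EiJ, mostly in its neurons. In Drd1+ neurons the CAST/EiJ mice had 35.4, 41.7, 45.9 and 40.8 CPM (41.0 ± 4.34), on 448 counts. The other 28 mice had 7 counts together, with 23 mice at 0 and none above 0.559 CPM. Drd2+ neurons gave 38.4, 42.1, 38.1 and 29.2 CPM in CAST/EiJ, on 304 counts, and 7 counts in the other 28 mice, with 23 of them at 0 and none above 1.21 CPM. There was no overlap in either cluster. From pooled counts, CAST/EiJ was 517-fold higher in Drd1+ neurons (95% exact interval 249 to 1294, counting error only) and 381-fold higher in Drd2+ neurons (183 to 957). A fitted fold change against mice at 0 depends on the prior count and is not given.

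The other neuron clusters had it too. Over the 6 neuron clusters, Sult3a1 had 957 counts in CAST/EiJ, or 42.4 CPM, and 17 in the other 7 strains, or 0.0909 CPM, a ratio of 467 (290 to 805). The first Slc17a7+ cluster of CAST/EiJ was the highest at 95.0 CPM, with 101 counts against 0 in the others, at least 208-fold over a floor of 3 counts for the group. The 4 glial clusters had 2 counts in CAST/EiJ, or 0.542 CPM, and 1 in the other strains. The vascular clusters, endothelium and mural cells, had 14 in CAST/EiJ, or 23.9 CPM, and 0 in the others, at least 39.4-fold over the same floor. The 4 markers of Drd1+ neurons summed to 79.9 to 284 CPM in the endothelium libraries of CAST/EiJ and 51.2 to 521 CPM in those of the other strains, and the part of neuronal RNA in the vascular counts was not tested.

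The neighbour Sult3a2 (chr10:33766424-33786704) and Sult2a5 and Sult6b1 are named after their values were seen. Sult3a2 had the same strain at a lower level: over all nuclei the CAST/EiJ mice had 1.79, 1.83, 1.66 and 1.39 CPM and no other mouse more than 0.429 CPM. In neuron clusters Sult3a2 had 43 counts in CAST/EiJ and 9 in the other strains, a ratio of 39.6 (19.0 to 92.4), and the share of its reads that belong to Sult3a1 was not tested. Sult2a5, of the hydroxysteroid sulfotransferases, was instead a PWK/PhJ gene, at 3.88, 4.98, 2.36 and 3.40 CPM over all nuclei, with no other mouse above 0.550 CPM. Its counts too came from neurons, 106 in PWK/PhJ and 25 in the other strains over the neuron clusters (ratio 34.1, 21.9 to 55), and it had 0 in glia of PWK/PhJ. Sult6b1 was high in CAST/EiJ at 3.02, 2.81, 5.80 and 8.50 CPM over all nuclei, above the 0 to 1.65 CPM of the other mice. Like Sult3a1, these genes entered the fit over all nuclei through their 1 or 2 highest strains, and no test is given.

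Sult4a1 was called in Drd2+ neurons, with means between 16.7 ± 3.55 CPM (NZO/HlLtJ) and 25.0 ± 8.18 CPM (129S1/SvImJ) (F = 3.09, adjusted p = 0.0193, edgeR), and not in Drd1+ neurons (adjusted p = 0.217). The same strains were lowest and highest in Drd1+ neurons, at 19.2 and 25.7 CPM. A difference between the neuron types was not called for Sult4a1 (interaction adjusted p = 0.981, edgeR). Sult2b1 in Drd2+ neurons was 9.81, 6.06, 4.16 and 6.80 CPM in NOD/ShiLtJ and 2.74 ± 0.567 CPM in NZO/HlLtJ, and the other 24 mice spanned both at 1.81 to 7.45 CPM. That call (F = 3.41, adjusted p = 0.0113, edgeR) was lost without batch 1 (0.308) or batch 2 (0.0723). Sult1a1 was not called in endothelium (adjusted p = 0.412), the only cluster where it was tested, and was called over all nuclei, with 4.72 ± 0.665 CPM in 129S1/SvImJ and 2.11 ± 1.02 CPM in A/J (adjusted p = 0.00248, edgeR).

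**Figure D5:**
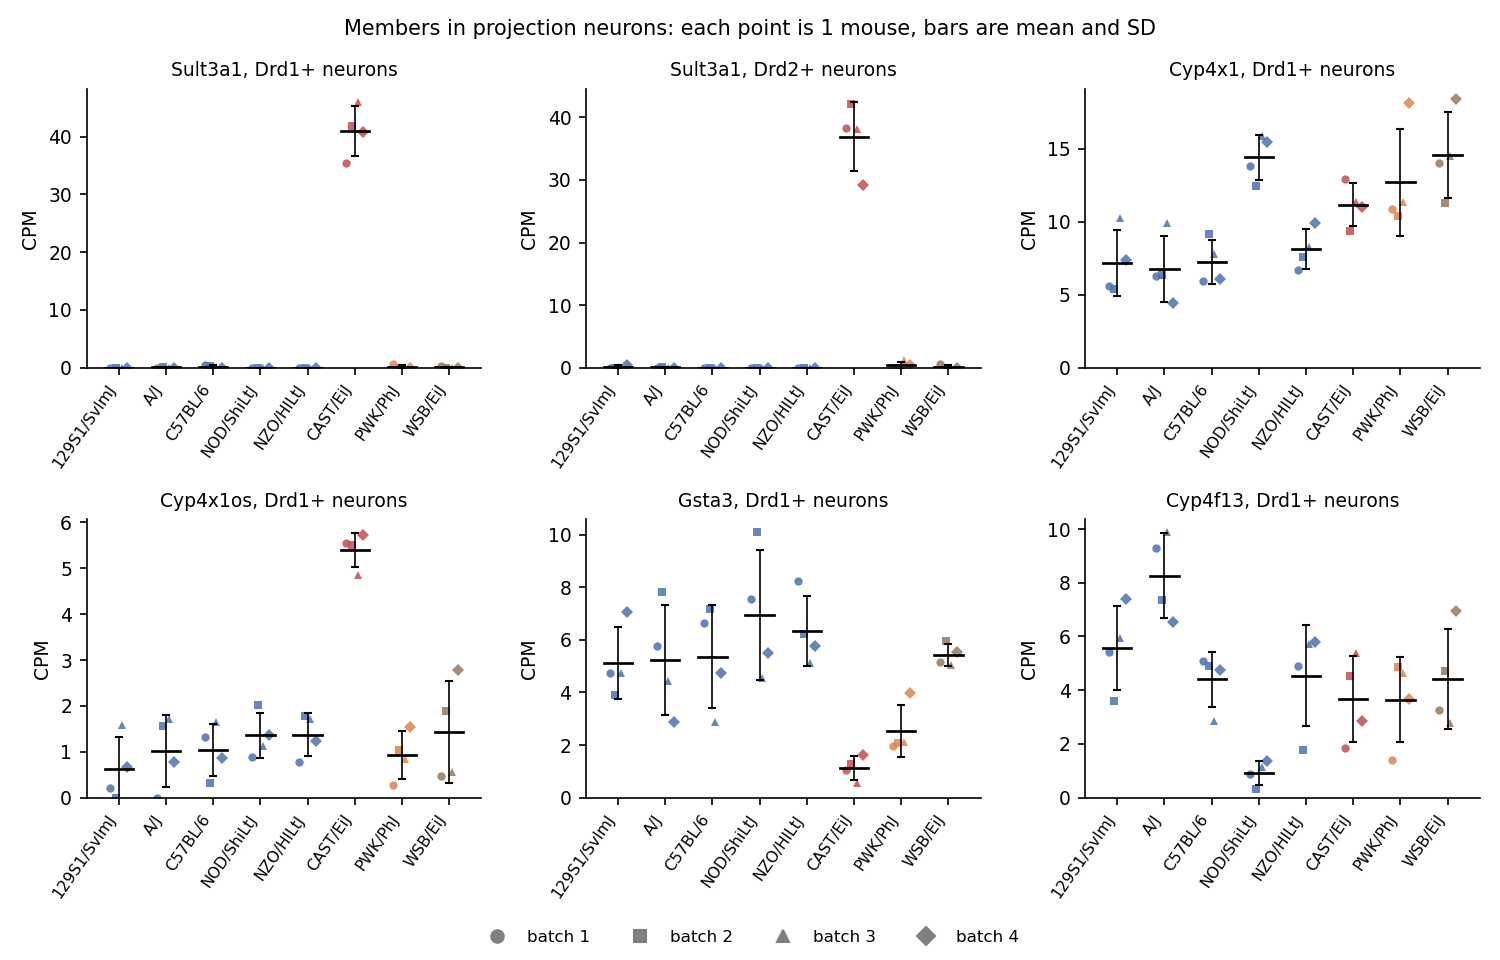
CPM of each mouse by strain for Sult3a1 in Drd1+ and Drd2+ neurons and for Cyp4x1, Cyp4x1os, Gsta3 and Cyp4f13 in Drd1+ neurons; a point is 1 mouse, its shape the batch, and bars are mean and SD. CAST/EiJ stands apart for Sult3a1 in Drd1+ neurons, at 35.4 to 45.9 CPM with no other mouse above 0.559 CPM. CAST/EiJ is lowest for Gsta3, and NOD/ShiLtJ is lowest for Cyp4f13.

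Each strain was also set against the mean of the other 7, which makes the 8 contrasts of a cluster share mice. In Drd1+ neurons CAST/EiJ gave 4 calls of 18 members, against 32.8% of all genes called for that strain in either direction: 3 were higher, as were 16.8% of all genes, and 1 lower, as were 15.9%. The 3 higher, Sult3a1, Cyp4x1os and Gstm7, had passed the filter through CAST/EiJ alone. NOD/ShiLtJ gave 4 (15.9% of all genes), and 129S1/SvImJ (12.3%), A/J (17.2%), C57BL/6 (13.9%), PWK/PhJ (34.3%) and WSB/EiJ (17%) gave 2 each, and NZO/HlLtJ 1 (19.7%). In oligodendrocytes CAST/EiJ gave 7 of 16 (17% of all genes), of which 6 were higher (9.45% of all genes), and PWK/PhJ 5 (15.7%), all higher (7.39%). Cyp2d22 and Cyp2j11, among the higher of both strains, had passed the filter through CAST/EiJ and PWK/PhJ alone. Astrocytes of CAST/EiJ had 8 of 16 called, against 9.64% of all genes, with 5 higher (4.75% of all genes) and 3 lower (4.89%), of which Cyp4f14 had passed through NOD/ShiLtJ alone.

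Whether a strain difference itself differed between cell types was tested for 4 pairs of clusters with the mouse as a block. Between Drd1+ and Drd2+ neurons none of 23 members was called, against 4.58% of all genes, and 2 had an unadjusted p under 0.05. Drd1+ neurons with oligodendrocytes gave 7 of 31, against 16.9%, with Cyp3a13 among them (adjusted p = 2.61e-05, edgeR). For Cyp3a13 the log2 ratio of oligodendrocytes to Drd1+ neurons was 5.21 in A/J and 2.05 in CAST/EiJ. Drd1+ neurons with astrocytes gave 4 of 34, against 11.4%, with Cyp4f13 first and Cyp2d22 next (adjusted p = 0.0149), a call lost without batch 1 (0.0776) or batch 2 (0.124). Astrocytes with oligodendrocytes gave 6 of 24, against 10.9%, with Cyp2d22 first, and 1 to 4 when any 1 batch was left out. Of these calls Cyp2j11, Cyp2j7, Cyp2j13 and Cyp2j8 had passed the filter only through their 1 or 2 highest groups of a cluster and strain. The count for Drd1+ neurons with astrocytes was 1 to 3, and that with oligodendrocytes 4 to 7, when any 1 batch was left out.

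Other genes of the pathway were listed by role and not by how they moved. Of 71 such genes, 58 were tested in some cluster and 49 called in at least 1, against 72.3% of all genes. By role these were 5 of 6 regulators, 13 of 15 electron donors and other oxidising enzymes, 10 of 11 genes of glutathione supply, 7 of 8 of the cofactors of sulfation and glucuronidation, 2 of 2 other conjugating enzymes, 6 of 9 pumps and 6 of 7 P450 genes of sterols and retinoids. By cluster the counts, each with the share of all genes called, were 33 of 49 in Drd1+ neurons (61.7%), 28 of 46 in Drd2+ neurons (55.9%), 15 of 42 in astrocytes (21.5%), 14 of 34 in oligodendrocytes (34.8%) and 5 of 12 in macrophages (24.8%). Endothelium gave 2 of 22 (3.23%), the second Drd1+ cluster 2 of 18 (17.3%), Nxph1+ interneurons 0 of 10 (1.53%) and polydendrocytes 0 of 4 (1.24%).

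The examples that follow were all called in the cluster named (edgeR) and were chosen after their values were seen. Whether any of them passed the filter on low counts through its high strains alone was not examined. Their adjusted p-values are therefore given as a description and are not read as tests. Por, the reductase that feeds every microsomal P450, was lowest in oligodendrocytes of NZO/HlLtJ at 35.7 CPM and highest in PWK/PhJ at 57.9 CPM (adjusted p = 0.0163), and NZO/HlLtJ was the lowest strain for Cyp2j12 as well. Among the glutathione genes, Hpgds, a sigma-class transferase that makes prostaglandin D, stood in macrophages at 250 ± 79.6 CPM in CAST/EiJ, its lowest strain, and at 976 ± 157 CPM in C57BL/6, its highest (adjusted p = 4.97e-13). CAST/EiJ was lowest in Drd1+ neurons too, at 8.24 ± 1.88 CPM of Hpgds against 30.9 ± 3.84 CPM in 129S1/SvImJ (adjusted p = 2.82e-15). The 5 macrophage markers summed to 49.4 to 69.5 CPM in Drd1+ neurons of CAST/EiJ and 39.0 to 46.7 CPM in those of 129S1/SvImJ, and their part in the Hpgds level of neurons was not tested. Mgst1, a microsomal transferase, had the reverse place for CAST/EiJ, with 15.9 ± 3.60 CPM in Drd1+ neurons and 2.88 ± 1.02 CPM in C57BL/6 (adjusted p = 2.50e-12). Slc7a11, the cystine importer for glutathione synthesis, had 75.8 ± 19.1 CPM in WSB/EiJ astrocytes and 493 ± 61.8 CPM in those of NZO/HlLtJ (adjusted p = 9.48e-18). Papss2, which makes the sulfate donor of the Sult enzymes, was lowest in Drd1+ neurons of CAST/EiJ, the strain with Sult3a1, at 3.61 CPM, and highest in PWK/PhJ at 15.2 CPM (adjusted p = 1.44e-07). The drug efflux pump Abcb1b had no count in macrophages of CAST/EiJ and 173 ± 45 CPM in those of NZO/HlLtJ (adjusted p = 2.87e-18). The flavin monooxygenase Fmo2 in endothelium had 27.9 ± 28.8 CPM in C57BL/6 and 352 ± 99.3 CPM in CAST/EiJ (adjusted p = 2.00e-05).

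Accessible chromatin was compared with the RNA only by position, since the deposited peak list is shared by all samples. It holds 291715 peaks of 1000 bases. A peak overlapped the window from 250 bases before to 50 bases after the start of 55.1% of the 27025 genes with a window in the RefSeq table and of 37 of 123 member genes (30.1%). Among members with at least 100 counts the share was 29 of 39 (74.4%), and among those below 8 of 84 (9.52%). Windows of Cyp2j12, Cyp2j11, Cyp2j6, Cyp2j9, Cyp4f13, Cyp4f14, Cyp4f15, Gsta3 and Cyp4x1os had a peak, and those of Cyp2j8, Cyp3a13, Sult3a1 and Sult3a2 had none. The windows of Cyp3a13, Sult3a1 and Sult3a2 lie inside their gene models, whose outer ends were not checked for a peak. The table gave no window for 23 members, Cyp2d22 and Cyp4x1 among them.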

How the data were processed

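Nuclear RNA of 32 striata was sequenced in 4 pooled batches. The authors ran bcl2fastq 2.20.0.422 and Cell Ranger ARC 2.0.0 on mm10 (GRCm38), per the submitters' processing notes, and deposited raw counts of unique molecular identifiers per gene and barcode. Per the labels, they assigned strains with Demuxlet, kept nuclei with over 200 and under 7500 genes and under 15% mitochondrial counts, and ran DoubletFinder; their deposited calls and cluster names (unit other) were used unchanged for 55672 of 89339 barcodes, and the deposited peak positions, also unit other, were used for overlap only.

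Counts were summed per mouse and cluster (at least 10 nuclei). edgeR 4.0.16 (R 4.3.3, limma 3.58.1) fitted strain and batch with filterByExpr by strain, TMM scaling and robust quasi-likelihood, with Benjamini-Hochberg adjustment over all genes; the code was tested on simulated data. Batch is a block since it marks a shared pool per the labels; deviations from strain means correlated at 0.123 within a batch and -0.0405 across. Library totals ranged from 16249 counts in the smallest library of cluster Unknown to 9416806 in the largest Drd1+ library, and intervals cover counting error only. A CPM floor is 3 counts.

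The members and lists were chosen with earlier results of these data known. Named members are the 12 with most counts, up to 6 called per cluster by F, up to 12 with at least 20 CPM and 5 times the median of other clusters, up to 5 called per interaction, and the largest change of at least 5 CPM per Drd1+ contrast. Alternatives were DESeq2 1.42.0 (test and size factors), no filter, at least 20 nuclei, pooled or TMM-scaled levels, no batch term (for interactions, no mouse block) and leaving out each batch. Counts per peak were not used here.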

Additional observations from a re-analysis of the deposited data

Results flagged for a closer look

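Of 181 groups of 4 mice with at least 10 counts of a named gene, 10 had a mouse far from the other 3 by Dixon's test at its 95% limit. That is 5.52%, and chance flags about 1 in 20. For Cyp2d22 these were a PWK/PhJ mouse in astrocytes at 391 CPM (next 272, batch 3) and a C57BL/6 mouse in oligodendrocytes at 8.24 CPM (next 4.95, on 6 counts). For Cyp4f13 a C57BL/6 mouse was low in Drd1+ neurons at 2.87 CPM (next 4.75) and a PWK/PhJ mouse in astrocytes at 88.3 CPM (next 114). For Cyp4f15 a 129S1/SvImJ mouse in astrocytes was high at 185 CPM (next 122). A PWK/PhJ mouse of batch 4 was high in Drd1+ neurons for Cyp4x1 at 18.1 CPM (next 11.4) and for Gsta3 at 4.00 CPM (next 2.10). Gsta3 in Drd2+ neurons had a high 129S1/SvImJ mouse at 6.41 CPM (next 4.22), NOD/ShiLtJ mouse at 8.31 CPM (next 5.05) and WSB/EiJ mouse at 6.35 CPM (next 4.52).

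By the interaction test in edgeR, the strain difference itself differed between cell types for 12 pairs of a gene and clusters whose gene passed the filter through more than 2 groups of a cluster and strain. Over Drd1+ neurons and astrocytes the adjusted p was 1.65e-06 for Cyp4f13, 0.0149 for Cyp2d22 and 0.0394 for Gstz1. Over Drd1+ neurons and oligodendrocytes it was 7.90e-19 for Cyp2d22, 2.61e-05 for Cyp3a13, 0.000316 for Cyp4f13, 0.00215 for Gsto1 and 0.0113 for Cyp2j6. Over astrocytes and oligodendrocytes it was 6.72e-32 for Cyp2d22, 0.00127 for Cyp2j6, 0.0287 for Cyp4v3 and 0.0363 for Cyp3a13. A further 5 fell under the threshold but passed the filter only through their 1 or 2 highest groups, so the choice to test them was not independent of the difference, and none is read from them: Cyp2j13 over Drd1+ neurons and astrocytes (0.0438), Cyp2j11 (1.87e-15) and Cyp2j7 (0.00311) over Drd1+ neurons and oligodendrocytes, and Cyp2j11 (0.0246) and Cyp2j8 (0.0468) over astrocytes and oligodendrocytes. Of all 17, 5 were under the threshold in every setting, Cyp2j11 over Drd1+ neurons and oligodendrocytes among them. The other 12 were lost in at least 1, by leaving out 1 batch in each case. Gstz1 was lost without every batch in turn (0.0892 without batch 3 to 0.355 without batch 2), without the mouse as a block (0.0610) and without the filter (0.0739). The highest adjusted p without 1 batch was 0.124 for Cyp2d22 and 0.303 for Cyp2j13 over Drd1+ neurons and astrocytes. Over Drd1+ neurons and oligodendrocytes it was 0.0710 for Cyp4f13, 0.0991 for Gsto1, 0.180 for Cyp2j7 and 0.173 for Cyp2j6. Over astrocytes and oligodendrocytes it was 0.714 for Cyp2j11, 0.656 for Cyp2j8, 0.694 for Cyp3a13, 0.334 for Cyp4v3 and 0.0523 for Cyp2j6.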

How the results depend on the processing

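No contrast of a named gene changed direction, while strain terms and interactions carry no direction to compare. Of 27 strain terms of named genes 21 kept their call in every setting, of 66 contrasts 34, and of 17 interactions 5. The 27 include pairs given above as a description with no test. They are Sult3a1 and Cyp4x1os in Drd1+ and in Drd2+ neurons, Cyp2d22 and Cyp2j11 in oligodendrocytes, Cyp2j8 and Cyp4f14 in astrocytes and Gsta4 in endothelium. Each such pair kept its call, which raises the share kept, and none is read as a stable test result. The 66 contrasts include theirs as well. Those 5 interactions include Cyp2j11 over Drd1+ neurons and oligodendrocytes, which had passed the filter only through its 2 highest groups. Without the filter on low counts the strain term called 48 of 137 members over all nuclei (43.5% of all genes), 15 of 80 in oligodendrocytes (15.6%), 27 of 116 in Drd1+ neurons (36.0%), 20 of 120 in Drd2+ neurons (32.0%), 1 of 66 in Nxph1+ interneurons (2.12%) and 1 of 76 in the second Drd1+ cluster (5.75%). It called 12 of 86 in astrocytes (9.72%), 1 of 67 in macrophages (6.70%), 3 of 56 in endothelium (2.55%) and 0 of 55 in polydendrocytes (1.17%). Of the 116 in Drd1+ neurons the contrasts then gave 5 for 129S1/SvImJ (6.73% of all genes), 5 for A/J (9.67%), 4 for C57BL/6 (7.87%), 15 for CAST/EiJ (19.0%), 2 for NZO/HlLtJ (10.6%) and 10 for PWK/PhJ (19.5%). The DESeq2 test gave 1 for 129S1/SvImJ and 1 for C57BL/6, and without the replicate block of batch 129S1/SvImJ gave 1 and WSB/EiJ 1. Endothelium and polydendrocytes could not be fitted with libraries of at least 20 nuclei.

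Leaving out 1 batch at a time, the members called ranged from 7 to 9 in Drd1+ neurons, 5 to 8 in Drd2+ neurons, 2 to 7 in astrocytes, 5 to 8 in oligodendrocytes, 0 to 1 in macrophages, 1 to 3 in endothelium and 22 to 29 over all nuclei. The low counts came without batch 1 in Drd2+ neurons (5), astrocytes (2) and macrophages (0), without batch 2 in astrocytes (4) and without batch 4 in oligodendrocytes (5), and endothelium had 1 without batch 1, 2 or 4. The Drd1+ contrasts ranged from 0 to 2 for 129S1/SvImJ, 2 to 2 for A/J, 1 to 3 for C57BL/6, 4 to 5 for CAST/EiJ, 3 to 4 for NOD/ShiLtJ, 0 to 1 for NZO/HlLtJ, 1 to 4 for PWK/PhJ and 1 to 2 for WSB/EiJ. Interactions ranged from 0 to 0 for Drd1+ with Drd2+ neurons, 1 to 3 with astrocytes, 4 to 7 with oligodendrocytes and 1 to 4 for astrocytes with oligodendrocytes. The pathway list ranged from 24 to 26 in Drd1+ neurons, 24 to 26 in Drd2+ neurons, and 10 to 13 in each of oligodendrocytes and astrocytes, and genes of 10 CPM or more from 29 to 31. Fewer mice per strain were fitted in each of these, and no other cause was tested. The share of all genes called in the fits without a batch was not compared. Depth limits the small clusters: in polydendrocytes only 1 member could be tested.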

Other observations

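Among the lowly expressed genes of the set, further strain patterns were seen over all nuclei and in single clusters, with the genes chosen after their values were seen. Cyp3a57, of the Cyp3a drug-metabolising subfamily, stood at 2.34 ± 0.832 CPM in CAST/EiJ and at no more than 1.45 CPM in any other mouse, and passed the filter through that strain alone. Cyp4v3 over all nuclei was 4.03 to 5.56 CPM in the CAST/EiJ mice and 0.644 to 3.84 CPM in the other 28, without overlap (adjusted p = 0.00213, edgeR), while astrocytes gave no call for it (adjusted p = 0.349). Gstm7 over all nuclei showed the same strain, at 6.97 to 8.34 CPM against 1.93 to 6.54 CPM. Cyp2s1 in Drd2+ neurons was lowest in NZO/HlLtJ (2.84 CPM) and highest in 129S1/SvImJ (10.8 CPM) (adjusted p = 0.0274, edgeR).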
